A study of Drosophila melanogaster with 47 samples.

Results

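Cytosolic glutathione S-transferases (GSTs) of Drosophila melanogaster that are named by class were followed across 8 groups of female midgut libraries. GSTs under any other symbol were left out. Members were all genes whose symbol is Gst, 1 of the class letters D, E, O, S, T or Z, and a number, which gave 34 of the 11964 genes listed in the 3 count tables: 11 delta (GstD), 13 epsilon (GstE), 3 omega (GstO), 1 sigma (GstS1), 4 theta (GstT) and 2 zeta (GstZ) genes. GstD11 was not listed in the progenitor table, which holds the other 33.

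GSTs join the tripeptide glutathione to electrophilic compounds, which makes toxins and products of lipid peroxidation soluble and ready for export. The delta and epsilon classes are the large insect classes, known for detoxification of insecticides and plant compounds. Omega enzymes act mainly in thiol transfer and redox reactions, GstS1 conjugates aldehydes from oxidised lipids, and zeta enzymes take part in tyrosine breakdown. In flies many delta and epsilon genes are induced through the transcription factor CncC, a product of cnc, which Keap1 restrains, and GstD1 is widely used as a reporter of that response.

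Each group had 4 libraries of poly(A) RNA. Mated and unmated esg-positive cells sorted by flow cytometry (called progenitors here), and mated and unmated whole midguts, came from esg-Gal4 females, a driver active in the stem cells of the gut and the young cells they give rise to. Midguts of Actin-Gal4/EcR RNAi females, mated and unmated, were set against those of Actin-Gal4 control females, mated and unmated. Actin-Gal4 is active in nearly all cells, EcR encodes the ecdysone receptor, and the Actin flies of all 4 groups, controls included, had spent 5 days at 29 °C before 48 h of mating at 25 °C. Mated females had been kept with males for 48 h, and unmated females had been kept from males since eclosion and were matched for age and genotype. A whole gut library pooled 15 guts and a sorted library 100 to 150 guts, so p-values measure the spread between pools. The study asked how mating changes the gut and whether ecdysone signalling takes part.

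Total gene counts per library ranged from 13712654 to 44215773. The sorted cells held 2274 to 2912 CPM (counts scaled to the same library total) over 8 progenitor markers, against 46.1 to 105 CPM in esg-Gal4 whole guts, and their 8 visceral muscle markers summed to at most 24.0 CPM. EcR was not lower in libraries labelled EcR RNAi: its log2 difference from controls was 0.67 ± 0.11 (SE) in unmated guts (adjusted p = 0.00125) and 0.21 ± 0.11 in mated guts (adjusted p = 0.340), so the genotype is given below as labelled. Whether a library was mated or unmated is taken from its label throughout. No value here checks those labels, and an exchange of them in 1 table would turn the directions given for it. Calls were made where edgeR's quasi-likelihood test gave an adjusted p under 0.05 (Benjamini-Hochberg, over all genes tested), and the share of all genes called is given beside the counts of called genes. In these bulk samples, fewer cells of a type and less RNA per cell cannot be told apart.

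Most of the family lies in 2 clusters. All 11 GstD genes lie on chromosome arm 3R at 12364776 to 12385624 (BDGP6.54 annotation), a stretch of 20849 bases with 3 other genes in it. GstD2 to GstD8 each have a single merged exon block, while GstD1, GstD9 and GstD10 have 2. Of the GstE genes, 10 lie on 2R at 18396638 to 18409835, within 13198 bases. GstE11 (18503608 to 18505025), GstE12 (24766718 to 24768172) and GstE13 (9122125 to 9123309) lie elsewhere on 2R. The 3 GstO genes are neighbours on 3L at 8518885 to 8524866, GstZ1 and GstZ2 on 3R at 9455517 to 9460652, and GstT1 and GstT2 on 2R at 9605988 to 9608350. GstT3 (20467455 to 20469796) and GstT4 (13404749 to 13409323) are on the X, and GstS1 stands alone on 2R at 17093246 to 17099501. Exons of 7 members overlap a gene on the opposite strand: GstE1 and GstE10 overlap each other, GstE9 overlaps imd, GstE12 CG3894, GstE13 CG18659, GstO2 se and GstT2 CG12926. The strand setting of the counting is not given, so reads of these pairs cannot be told apart, and read sharing among related GstD or GstE copies was not measured.

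Per length of exon, GstD1 had the highest level of the family in all 8 groups. It averaged 584 ± 14.3 CPM per kb (SD, n = 4, as for all levels) in mated and 929.9 ± 153 CPM per kb in unmated progenitors, and 1039 ± 208 CPM per kb in mated and 703 ± 89.0 CPM per kb in unmated whole guts. Ranks were not tested, and where the SD is wide they can rest on some of the libraries. By group mean, the runner-up differed among the groups. It was GstT4 in mated whole guts (591 ± 138 CPM per kb), GstE12 in mated progenitors (207 ± 11.3 CPM per kb) and GstE1 in unmated progenitors (624 ± 341 CPM per kb). In unmated whole guts it was GstE3 (269 ± 67.2 CPM per kb). In EcR RNAi guts it was GstE3 after mating (359 ± 103 CPM per kb) and GstT4 in unmated females (532 ± 48.3 CPM per kb). In control guts GstE12 (237 ± 25.1 CPM per kb) and GstT4 (235 ± 74.1 CPM per kb) were within their spread of each other after mating, and GstT4 was second in unmated females (465 ± 91.5 CPM per kb). GstD11 and GstE4 averaged under 1 CPM in every group that listed them.

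Summed over all members, the family held 1533 ± 46.0 CPM in progenitors of mated females and 3220.4 ± 838 CPM in those of unmated females. Whole guts held 3356 ± 164 CPM when mated and 2399 ± 280.0 CPM when unmated. In Actin EcR RNAi guts it held 2630.1 ± 234 CPM after mating and 3197 ± 389.6 CPM in unmated females. In Actin control guts it held 2059 ± 226 CPM after mating and 2619 ± 314 CPM in unmated females. CPM were scaled within each table, so levels set across materials are side by side only. The mated libraries lay above the unmated ones without overlap in whole guts and below them without overlap in progenitors and EcR RNAi guts, while the Actin control groups overlapped.

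**Figure D1:**
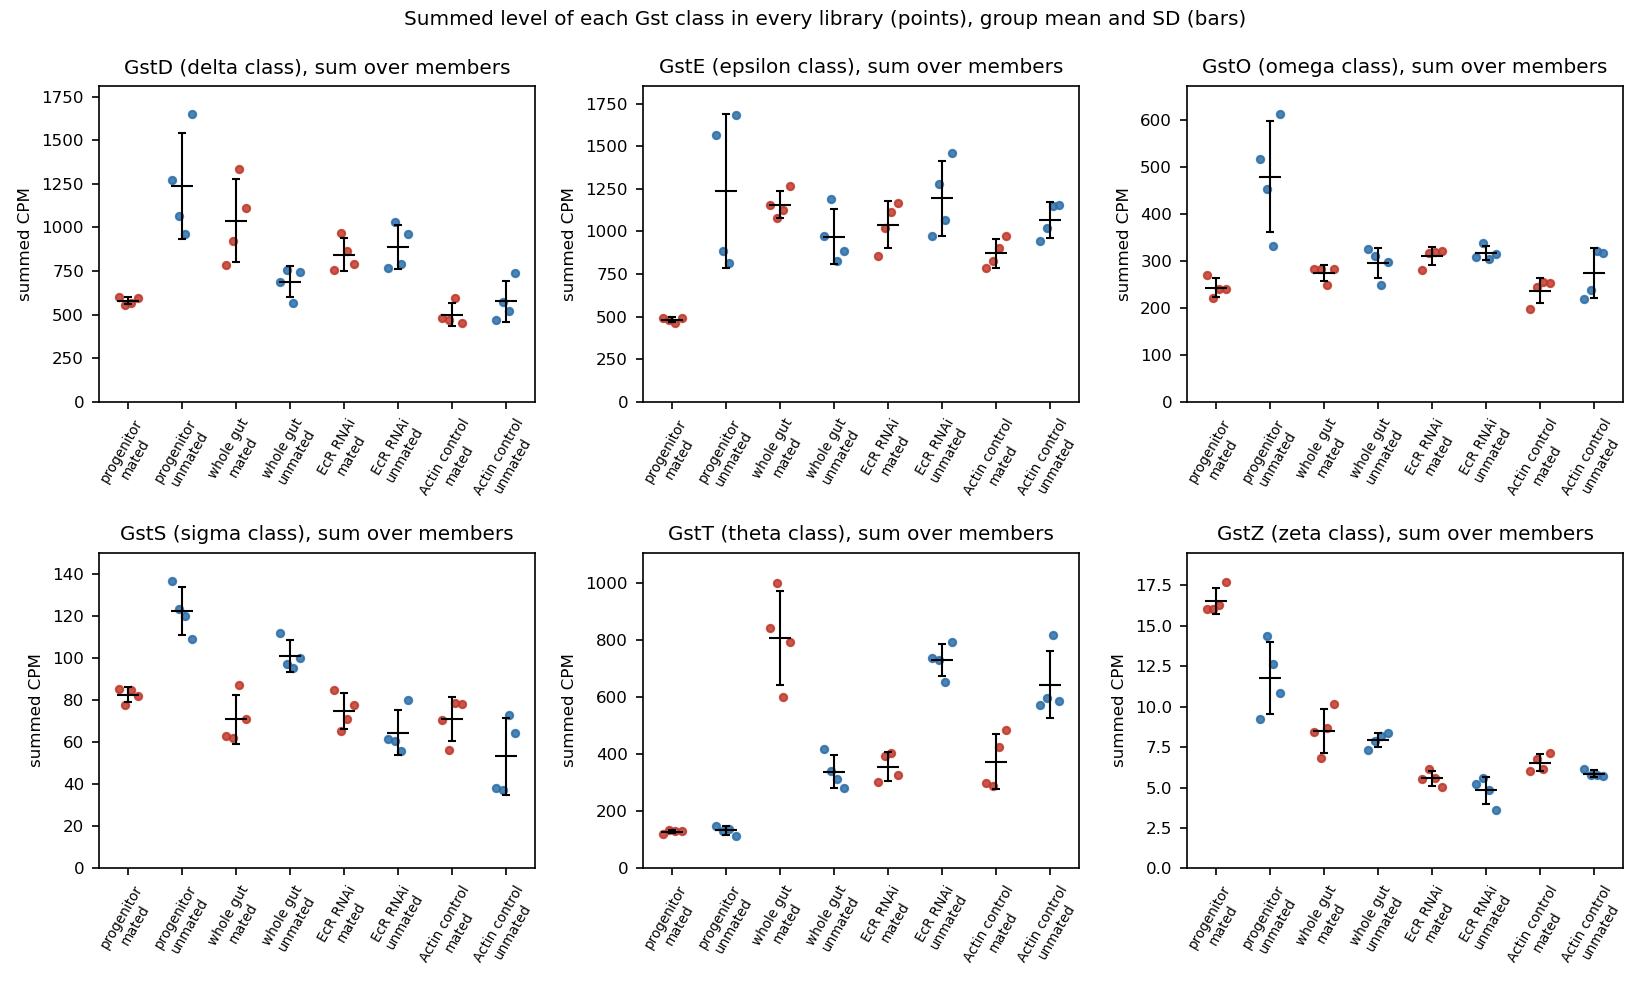
Summed CPM of each GST class (y axis, linear) in every library of the 8 groups (x axis), with points for libraries (mated red, unmated blue) and bars for the group mean and SD. Class D averaged 580.4 CPM in progenitors of mated females and 1238 CPM in those of unmated females. Class T, mostly GstT4, averaged 807 CPM in whole guts after mating and 338 CPM in unmated ones.

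In esg-Gal4 whole guts, mating went with higher levels of 5 members and lower levels of none. GstT4, GstD9, GstE9, GstE8 and GstO2 rose, of 30 members tested, while 4.26% of all genes were called, 2.23% as higher and 2.03% as lower. The median log2 fold change of the 30 was 0.16, against 0.02 over all genes. At an unadjusted p under 0.05, 10 members were higher and 2 lower, and DESeq2 called 6 higher and 2 lower.

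GstT4, a theta class enzyme, had 759.5 (library 1), 914 (library 2), 506 (library 3) and 705 CPM (library 4) in mated whole guts, against 335, 246, 242 and 218 CPM in unmated ones. The lowest mated library lay above the highest unmated one, and the log2 fold change was 1.47 ± 0.20 (adjusted p = 0.00282). GstO2, an omega class enzyme, had 114.9, 117, 111 and 114.8 CPM in mated whole guts, against 83.3, 90.8, 75.3 and 81.9 CPM in unmated ones. Again the groups did not overlap, with a log2 fold change of 0.47 ± 0.09 (adjusted p = 0.0171). GstE8 had 36.1, 31.9, 41.0 and 42.6 CPM in mated whole guts, against 29.4, 25.6, 21.4 and 24.1 CPM in unmated ones. Its groups were separate by a narrower margin, at a log2 fold change of 0.59 ± 0.13 (adjusted p = 0.0301).

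The other 2 that rose were GstD9 (1.28 ± 0.29, adjusted p = 0.0437) and GstE9 (0.69 ± 0.16, adjusted p = 0.0419). Libraries of the 2 groups did not overlap for 9 of the 30 members, or for 11.5% of all genes. The 4 of these that were not called were GstD1 (0.56 ± 0.16, adjusted p = 0.0990), GstE11, GstO3 (-0.43 ± 0.13, adjusted p = 0.108) and GstS1 (-0.51 ± 0.13, adjusted p = 0.0529). Of the 5 calls, that of GstT4 was kept under every alternative. The number of calls fell to 1 on leaving out mated library 4, unmated library 3 or unmated library 4, to 2 on leaving out unmated library 1, and to 3 on leaving out mated library 2 or unmated library 2. With upper quartile scaling, GstT4 was higher and GstS1 lower and no other member was called. The 7 enterocyte markers summed to 16415 to 18082 CPM in whole guts after mating and to 34738 to 48014 CPM in unmated ones. The 8 visceral muscle markers summed to 837 to 1099 CPM after mating and to 1427 to 1520 CPM in unmated guts. Their part in the result was not tested.

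In sorted progenitors the family was lower after mating. Of 32 members tested, 19 fell and 3 rose, while 40.2% of all genes were called, 21.1% as lower and 19.1% as higher. The median log2 fold change was -0.85 over the members and 0.02 over all genes. Over 2-fold falls were called for 15 members, and for 9.96% of all genes. Libraries of the 2 groups did not overlap for 22 members, or for 41.3% of all genes.

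The falls were mainly in the delta and epsilon classes. In the GstD cluster 8 of the 10 members tested fell and in the GstE cluster 7 of 9, including GstD2 (-4.02 ± 0.44), GstE7 (-3.71 ± 0.49), GstE8 (-3.03 ± 0.48), GstE1 (-2.85 ± 0.39) and GstE3 (-2.53 ± 0.35). GstD6 (-2.23 ± 0.33), GstD5 (-2.06 ± 0.31), GstD10 (-1.88 ± 0.30), GstE9 (-1.82 ± 0.27) and GstE6 (-1.71 ± 0.26) fell as well, as did GstE5 (-1.11 ± 0.35), GstD4 (-1.09 ± 0.24), GstD3 (-0.83 ± 0.17) and GstD1 (-0.67 ± 0.11). GstD7, GstD8, GstE2 and GstE10 were not called. Of the GstE genes outside the cluster, GstE11 fell (-0.43 ± 0.07), GstE13 rose (0.30 ± 0.08) and GstE12 was not called. In the other classes GstO3 (-1.62 ± 0.25), GstT4 (-1.67 ± 0.35) and GstS1 (-0.57 ± 0.08) fell, whereas GstO1 (0.48 ± 0.09) and GstZ1 (0.51 ± 0.14), an enzyme of tyrosine breakdown, rose. GstT1, GstT2, GstT3, GstO2 and GstZ2 were not called.

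**Figure D2:**
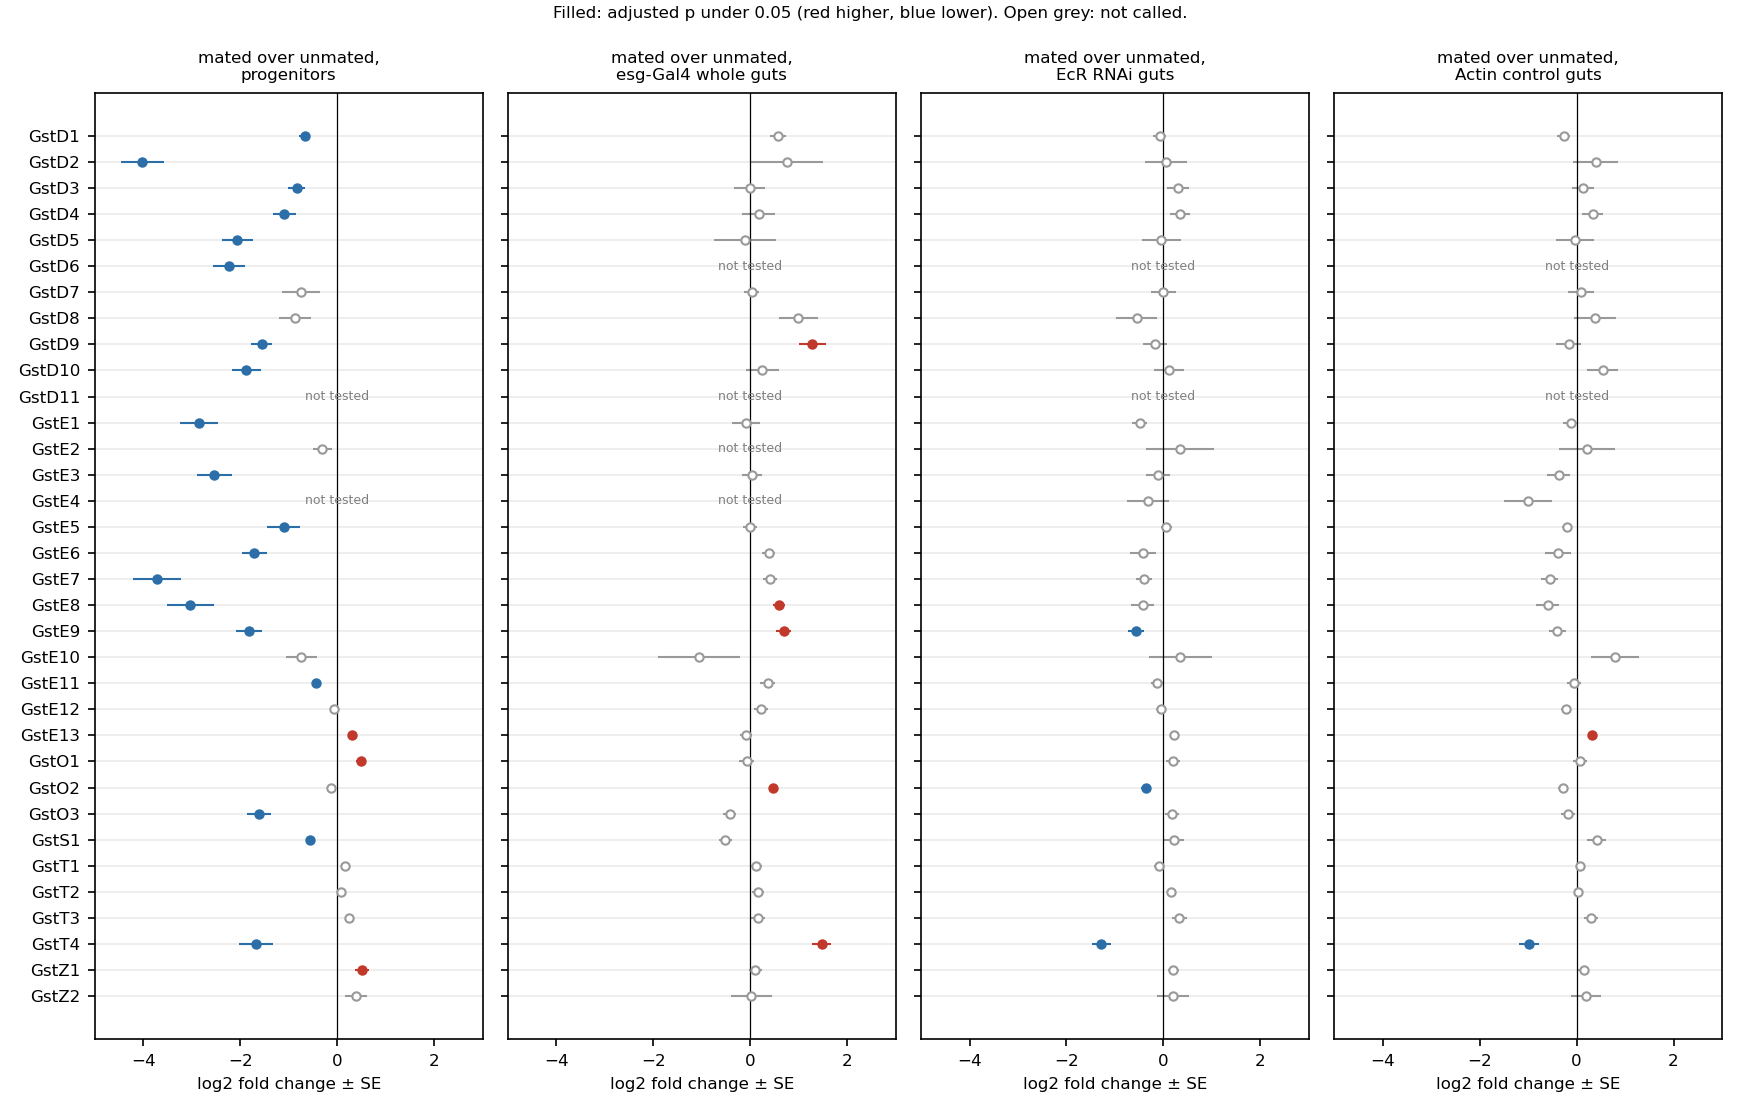
Log2 fold change of mated over unmated libraries with its SE (x axis) for each of the 34 members (y axis) in the 4 mating comparisons, with filled symbols for called members. In progenitors 19 members are filled blue and 3 red, against 5 red in whole guts. In EcR RNAi guts 3 are blue, and in Actin controls 1 is red and 1 blue.

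GstD2 had 22.4 (library 1), 8.63 (library 2), 19.2 (library 3) and 22.35 CPM (library 4) in mated progenitors, against 236.5, 266, 159 and 522 CPM in unmated ones. All mated libraries lay far below all unmated ones (adjusted p = 0.00210). GstS1 had 85.3, 77.7, 84.9 and 82.1 CPM in mated progenitors, against 137, 123, 119.99 and 109 CPM in unmated ones. The spread of GstS1 was small in both groups, which did not overlap (adjusted p = 0.00260). GstD9 had 13.4, 14.1, 16.3 and 17.4 CPM in mated progenitors, against 56.8, 31.3, 35.1 and 57.4 CPM in unmated ones, a log2 fold change of -1.56 ± 0.21 (adjusted p = 0.00267). Unmated libraries 1 and 4 were the highest for GstD9.

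Epsilon members of the cluster were likewise uneven among the unmated libraries. GstE1 had 76.9, 58.2, 74.3 and 79.0 CPM in mated progenitors, against 768, 287, 259 and 760 CPM in unmated ones (adjusted p = 0.00293). GstE7 had 12.5, 8.75, 7.39 and 8.26 CPM in mated progenitors, against 149.6, 66.7, 48.1 and 221 CPM in unmated ones (adjusted p = 0.00280). Neither gene had overlapping groups, and unmated libraries 1 and 4 stood above libraries 2 and 3 for both. GstO3, an omega class member, had 138, 87.6, 111 and 114 CPM in mated progenitors, against 394, 316, 200.4 and 469 CPM in unmated ones (adjusted p = 0.00382), again without overlap.

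The 3 members that rose had log2 fold changes of at most 0.51. GstO1 had 22.4, 23.1, 20.98 and 22.1 CPM in mated progenitors, against 13.97, 16.7, 17.3 and 15.4 CPM in unmated ones (adjusted p = 0.00543). GstE13 had 25.4, 24.3, 22.05 and 23.75 CPM in mated progenitors, against 18.6, 21.6, 18.4 and 19.2 CPM in unmated ones (adjusted p = 0.0213). GstZ1 had 12.9, 13.8, 12.35 and 14.7 CPM in mated progenitors, against 7.25, 11.5, 9.98 and 8.86 CPM in unmated ones (adjusted p = 0.0216). For all 3 the lowest mated library lay above the highest unmated one.

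Of the 19 members that fell, unmated library 4 had the highest unmated value for 10, library 1 for 8 and library 2 for 1. The lowest unmated value was in library 3 for 9 of them, in library 2 for 6 and in library 4 for 4. Among members averaging at least 10 CPM, the median coefficient of variation was 7.38% in mated and 27.7% in unmated progenitors. The 13 heat shock genes of a stress list all fell as well, and their sum was 5499 to 9197 CPM in mated progenitors, against 78151, 43357, 20429 and 58291 CPM in unmated libraries 1 to 4. Their part in the GST result was not tested. Without unmated libraries 1 and 4, 17 members were called lower and 1 higher, and GstD4, GstE5, GstE13 and GstZ1 were the calls lost. Without these libraries some falls were smaller, at -2.64 for GstE7, -2.06 for GstE8, -1.93 for GstE1, -1.73 for GstE3 and -1.29 for GstD10 on the log2 scale. That of GstE11, at -0.48, was not smaller, and that of GstS1, at -0.57, was about the same. The 7 enterocyte markers summed to 1088 to 1515 CPM in progenitors of mated females and to 1097 to 1804 CPM in those of unmated females. Of the progenitor markers, esg (0.78 ± 0.16, adjusted p = 0.00795) and Dl (0.76 ± 0.20, adjusted p = 0.0200) were higher after mating. Changes of the other progenitor markers are not given here, so these values do not describe that list as a whole.

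**Figure D3:**
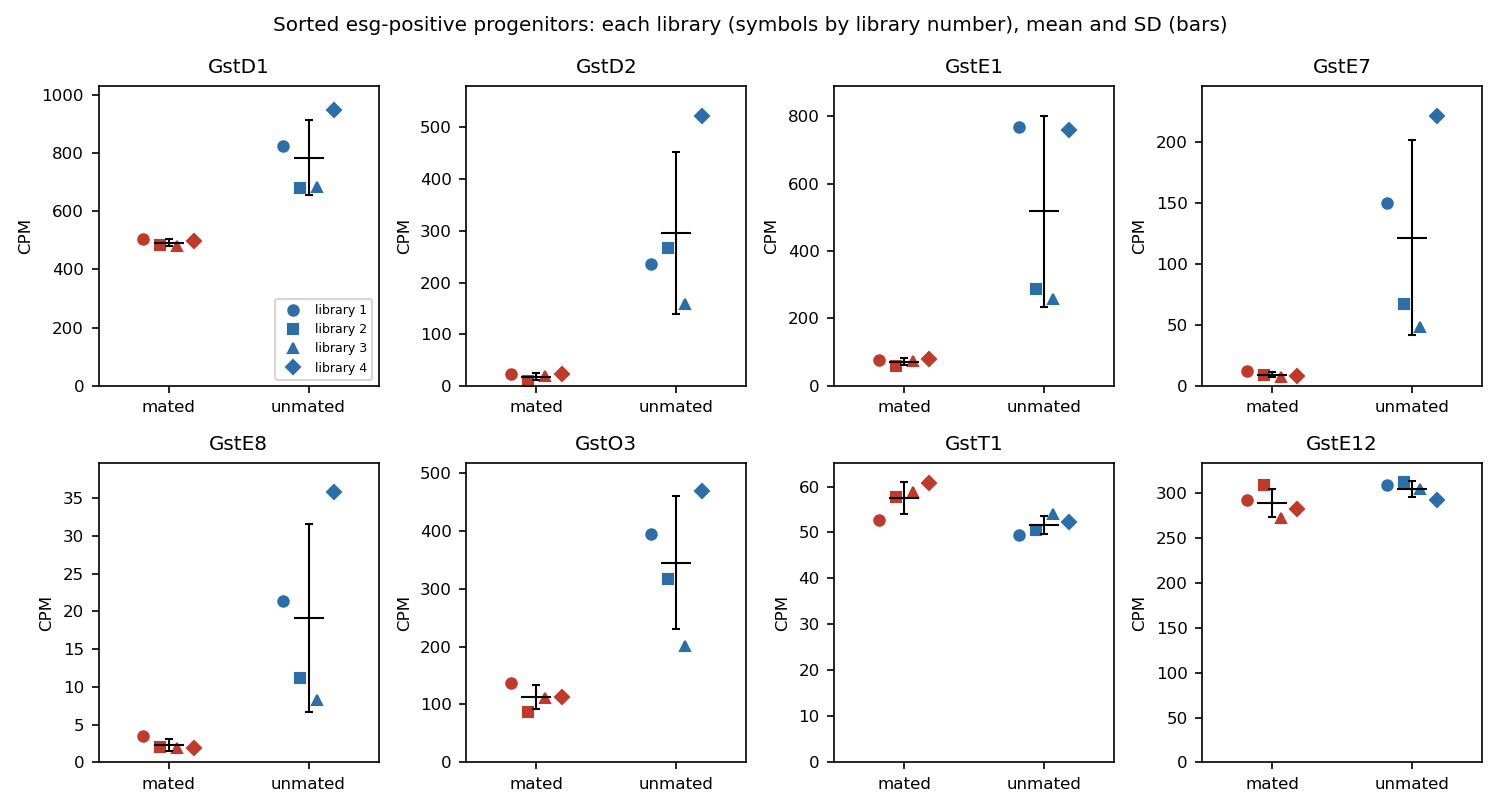
CPM (y axes, linear from 0) of 8 members in each mated and unmated progenitor library, with symbols by library number and bars for the mean and SD. For GstD2, GstE1, GstE7, GstE8 and GstO3 every mated library lies below every unmated one, while GstT1 and GstE12 lie at similar levels in both groups.

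In Actin control guts, GstE13 rose and GstT4 fell, of 32 members tested, while 6.87% of all genes were called, 2.95% as higher and 3.92% as lower. Groups did not overlap for 3 members, or for 14.1% of all genes. GstT4 had 219 (library 1), 206 (library 2), 330.2 (library 3) and 393.5 CPM (library 4) in mated control guts, against 498, 534, 733 and 502 CPM in unmated ones. The groups did not overlap, with a log2 fold change of -0.98 ± 0.20 (adjusted p = 0.0108). GstE13 had 18.7, 18.6, 21.8 and 19.8 CPM in mated control guts, against 16.6, 15.8, 15.1 and 15.9 CPM in unmated ones (0.31 ± 0.07, adjusted p = 0.0182). Same-numbered libraries of these groups correlated weakly in their deviations from the group mean, which does not settle whether the numbers mark pairs. With the replicate number as a block 5 members were called, GstE13 as higher and GstT4, GstE7, GstE8 and GstE12 as lower. With only the compared groups in the fit, neither GstE13 nor GstT4 was called (GstT4 adjusted p = 0.0555) and GstE7 was the 1 member called. GstE13 was not called without mated library 3, unmated library 2 or unmated library 3. The 8 Malpighian tubule markers summed to 133 to 203 CPM in mated control guts and to 85.5 to 107 CPM in unmated ones, and their part in the result was not tested.

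In guts labelled EcR RNAi, GstT4, GstO2 and GstE9 fell with mating and no member rose, of 32 tested, while 10.8% of all genes were called, 5.37% as higher and 5.41% as lower. Groups did not overlap for 4 members, or for 19.3% of all genes. GstT4 had 210.3, 308, 303 and 244.5 CPM in mated EcR RNAi guts, against 669.5, 644.5, 571 and 711 CPM in unmated ones (-1.28 ± 0.20, adjusted p = 0.00202). GstO2 had 95.3, 106, 119 and 108 CPM in mated EcR RNAi guts, against 134, 149.5, 126 and 138 CPM in unmated ones (-0.35 ± 0.10, adjusted p = 0.0408). GstE9 had 65.5, 95.2, 80.6 and 80.9 CPM in mated EcR RNAi guts, against 113, 129.7, 102 and 131 CPM in unmated ones (-0.56 ± 0.17, adjusted p = 0.0480). For all 3 genes the mated libraries lay below the unmated ones. GstT4 was then the 1 member called on leaving out any of mated libraries 1 and 4 or unmated libraries 2 and 4. The 7 enterocyte markers summed to 27479 to 36012 CPM in mated EcR RNAi guts and to 22806 to 27428 CPM in unmated ones, and their part in the result was not tested.

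Whether the mating response differed with EcR RNAi was tested as an interaction. By edgeR no member was called, none had an unadjusted p under 0.05, and the smallest adjusted p of a member was 0.672 (GstO3). Of all 9036 genes edgeR called 0 (0.0%), with 727 at an unadjusted p under 0.05, and DESeq2 called 1 gene and no member.

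GstT4 was the 1 member called in all 4 mating comparisons, higher after mating in esg-Gal4 whole guts and lower in the other 3. The Actin control response minus the whole gut response was -2.46 ± 0.32 on the log2 scale (adjusted p = 0.000256). In that difference 7 of 32 members were called, all lower, while 8.12% of all genes were called, 4.96% as lower and 3.16% as higher. The 7 included all 5 members that rose in whole guts together with GstD1 and GstE7. With the replicate number as a block the count was also 7, but GstD1 and GstD9 were not called, GstE6 was called lower and GstS1 higher (0.99 ± 0.20, adjusted p = 0.0172). The progenitor response minus the whole gut response was also lower for those 5, within 15 members called lower and 1 (GstO1) called higher of 33, while 21.3% of all genes were called, 12.2% as lower and 9.06% as higher. Both differences share the whole gut libraries, and those 5 members were picked as higher after mating in these same libraries. Lower differences for the 5 were favoured by that choice. Between Actin and esg-Gal4 whole guts, driver, temperature regime and library set go together and cannot be told apart. A temperature is given for the Actin flies only. Whether mated and unmated labels were exchanged in 1 of these tables was not tested.

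**Figure D4:**
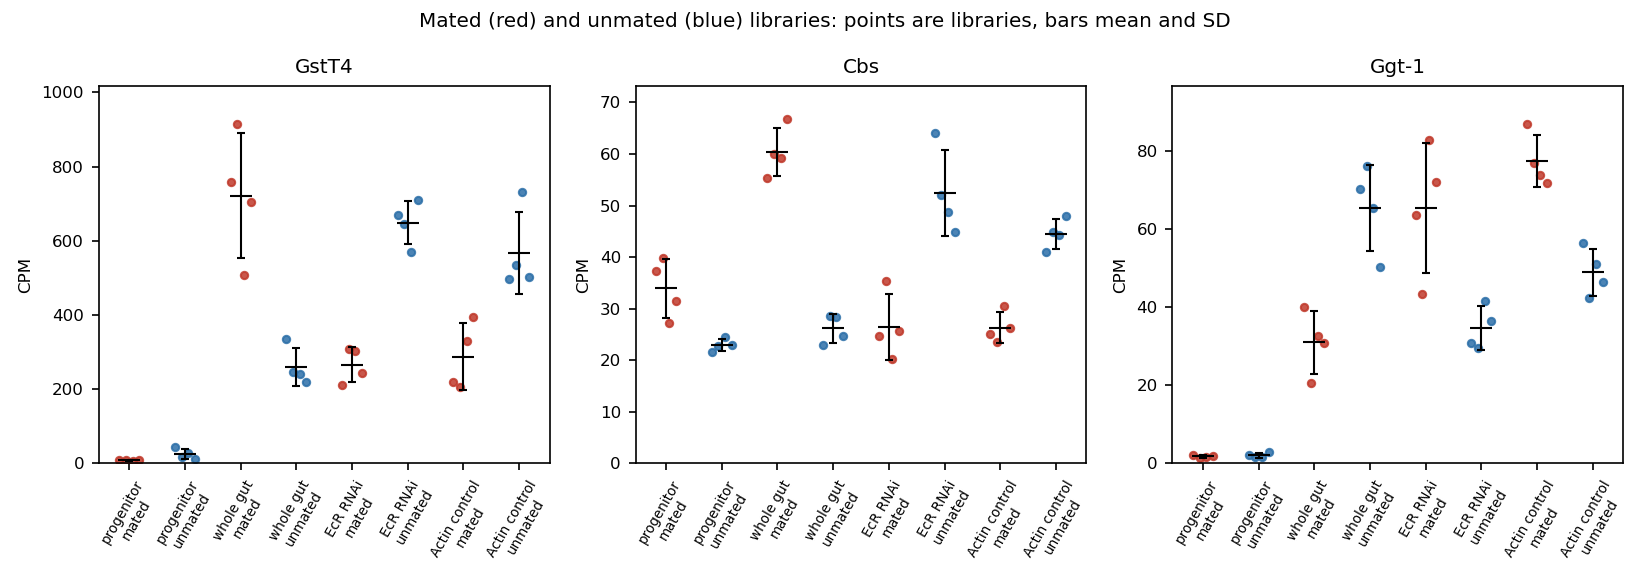
CPM (y axes, linear from 0) of GstT4, Cbs and Ggt-1 in every library of the 8 groups, mated in red and unmated in blue, with the mean and SD. GstT4 averaged 721 CPM in whole guts after mating and 260.3 CPM in unmated ones, but 287 CPM in Actin control guts after mating and 567 CPM in unmated ones, and had at most 43.2 CPM in any progenitor library.

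Against controls, guts labelled EcR RNAi held more of several delta class transcripts. In unmated guts 7 members were higher and 2 lower of 32 tested, while 15.2% of all genes were called, 7.95% as higher and 7.24% as lower. Groups did not overlap for 9 members, or for 20.2% of all genes. The higher ones were GstD10 (1.71 ± 0.32), GstD2 (1.58 ± 0.46), GstD8 (1.58 ± 0.44), GstD9 (1.46 ± 0.26), GstD4 (1.21 ± 0.21), GstD1 (0.54 ± 0.13) and GstE7 (1.03 ± 0.17), so 6 of the 9 GstD genes tested. GstE10 (-2.37 ± 0.59) and GstE12 (-0.33 ± 0.10) were lower. In mated guts 8 members were higher and 1 lower of 32, while 8.52% of all genes were called, 3.53% as higher and 4.99% as lower. Groups did not overlap for 10 members, or for 13.1% of all genes. GstD9 (1.44 ± 0.26), GstD10 (1.29 ± 0.32), GstD4 (1.21 ± 0.21), GstE7 (1.19 ± 0.17), GstE3 (0.82 ± 0.24), GstD1 (0.72 ± 0.13), GstO3 (0.51 ± 0.15) and GstE5 (0.44 ± 0.11) were higher, and GstE10 (-2.81 ± 0.57) was lower.

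The genotype comparisons use separate libraries, but of the same stocks and in a shared fit. In both, 5 members were called higher (GstD1, GstD4, GstD9, GstD10, GstE7) and 1 lower (GstE10), which is 6 of the 9 called in each. The share of all genes called in both was not counted, so this recurrence cannot be set against it. GstD1 averaged 714 ± 88.3 CPM in mated EcR RNAi guts and 433 ± 46.4 CPM in mated control guts, and 753 ± 86.8 CPM in unmated EcR RNAi guts and 519 ± 104 CPM in unmated control guts. In each mating state all EcR RNAi libraries lay above all control libraries. GstE7 had 88.9, 104, 118 and 136 CPM in mated EcR RNAi guts, against 48.2, 46.7, 44.4 and 56.8 CPM in mated control guts. It had 103, 163, 138 and 184 CPM in unmated EcR RNAi guts, against 63.4, 67.4, 87.5 and 70.2 CPM in unmated control guts, so neither pair of groups overlapped. GstE10 was scarce, at 0.223 to 1.04 CPM in mated EcR RNAi guts and 1.52 to 5.46 CPM in mated control guts. In EcR RNAi guts it lay around or under the count filter, so it was tested through the control libraries and a lower call was favoured. Its exons overlap those of GstE1 on the other strand. GstE1 itself was not called in either comparison. In mated guts 5 members were called on leaving out control library 1 or control library 2. The calls of GstD10, GstE3, GstE5 and GstO3 in mated guts and of GstD2, GstD8 and GstE12 in unmated guts were lost on leaving out some single library. The class D sum was 844 ± 93.0 CPM in mated EcR RNAi guts and 501 ± 64.8 CPM in mated control guts. The Malpighian tubule markers summed to 85.6 to 105 CPM in mated EcR RNAi guts and to 133 to 203 CPM in mated control guts, and the visceral muscle markers to 1104 to 1458 CPM in unmated EcR RNAi guts and to 1659 to 2226 CPM in unmated control guts. Their part in the result was not tested.

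**Figure D5:**
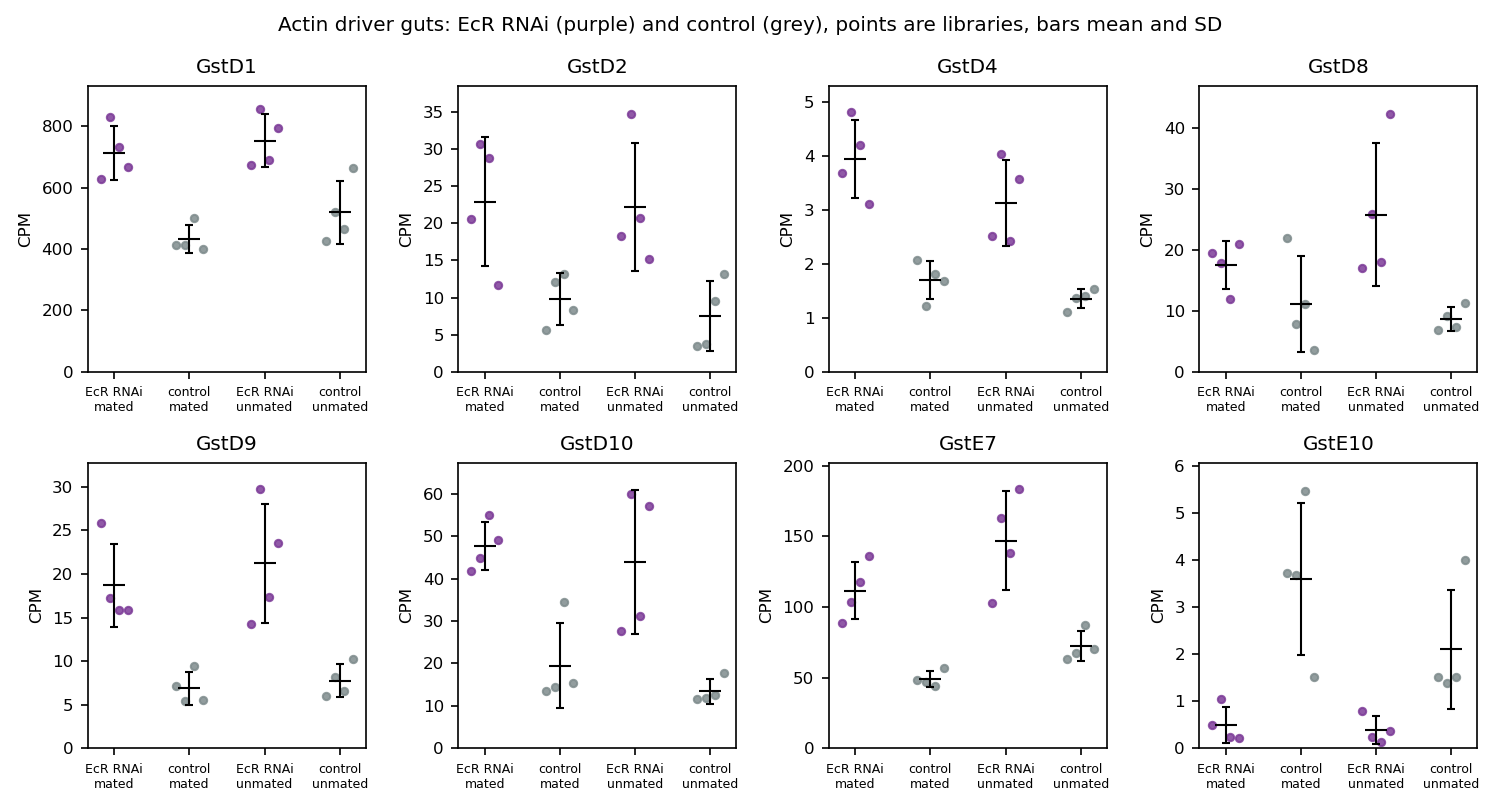
CPM (y axes, linear from 0) of 8 members in Actin EcR RNAi (purple) and Actin control (grey) guts, mated and unmated, with points for libraries and bars for the mean and SD. GstD1, GstD4, GstD9, GstD10 and GstE7 are higher and GstE10 is lower in EcR RNAi guts of both mating states.

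Between sorted progenitors and whole guts most members were called, as were most genes. Of 33 members tested jointly, 7 were higher and 19 lower in mated progenitors than in mated whole guts, while 82.9% of all genes were called (43.2% higher, 39.7% lower). In unmated progenitors 11 were higher and 16 lower than in unmated whole guts, while 81.0% of all genes were called (42.2% higher, 38.8% lower). The called shares of the members, 26 and 27 of 33, were close to those of all genes. Higher in progenitors in both states were GstD3 (3.98 ± 0.26 mated, 4.76 ± 0.27 unmated), GstO1, GstT1, GstE11 and GstZ2. The counts of 7 and 11 also hold GstD6 and GstE2, which were under the count filter in whole guts and were tested through the progenitor libraries alone, so that their direction was fixed. GstE4, counted as lower in both states, was under the filter in each of the 2 tables by itself. The 4 lowest relative to whole guts in both states were GstT4 (-7.02 ± 0.39 mated, -3.92 ± 0.34 unmated), GstE9 (-6.65 ± 0.28 mated, -4.18 ± 0.25 unmated), GstE5 (-6.06 ± 0.30 mated, -5.02 ± 0.28 unmated) and GstD8 (-5.95 ± 0.43 mated, -4.13 ± 0.40 unmated). GstD2 was higher in unmated progenitors (5.46 ± 0.67) and was not called in mated ones. Sorting, material and library set cannot be told apart, and the 12 heat shock genes tested were all higher in progenitors. The median of all genes was 0.10 and 0.09 on the log2 scale in mated and unmated material, and 0.23 and 0.18 with upper quartile scaling.

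The member of each class with the highest mean CPM over the 8 groups was followed through all groups. Within single groups the order could differ, with GstT1 above GstT4 in both progenitor groups and GstE1 above GstE12 in unmated progenitors. The values of GstD1 and GstT4 are given above. GstE12 lay between 222 and 422 CPM over all 32 libraries and was called in no mating comparison without the replicate block. GstO3 averaged 153 ± 15.2 CPM in whole guts after mating and 206 ± 28.0 CPM in unmated ones. GstS1 averaged 70.8 ± 11.7 CPM in whole guts after mating and 101 ± 7.55 CPM in unmated ones. GstZ1 was at most 14.7 CPM in any library.

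The enzymes that make, recycle and export glutathione were taken from a list of 25 genes of glutathione metabolism, NADPH supply and the Keap1 and cnc pathway, of which 23 were found in the tables. In whole guts 3 of 22 tested rose with mating and 1 fell, beside 4.26% of all genes called. Cbs, which feeds cysteine synthesis, had 55.4, 60.02, 59.2 and 66.7 CPM in mated whole guts, against 23.0, 28.5, 28.3 and 24.7 CPM in unmated ones (1.21 ± 0.11, adjusted p = 0.000314). Men, the NADPH-producing malic enzyme, rose (0.76 ± 0.10), as did MRP, an exporter of conjugates (0.62 ± 0.15), and Ggt-1, which breaks down external glutathione, fell (-1.07 ± 0.20). In progenitors 1 of 23 rose and 8 fell, so 39.1% of the list was called, near the 40.2% of all genes. Men had 42.2, 48.0, 52.3 and 43.4 CPM in mated progenitors, against 116, 91.0, 104 and 114.98 CPM in unmated ones (-1.20 ± 0.10, adjusted p = 0.00163).

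Gclc and Gclm, the subunits of the rate-limiting enzyme of glutathione synthesis, fell in progenitors (-2.10 ± 0.29 and -1.80 ± 0.30). Gclc had 124, 94.97, 88.5 and 94.4 CPM in mated progenitors, against 655, 327, 242 and 497 CPM in unmated ones. Keap1 had 19.8, 18.2, 18.2 and 17.8 CPM in mated progenitors, against 42.3, 35.4, 30.2 and 51.2 CPM in unmated ones (-1.11 ± 0.15). Unmated libraries 1 and 4 were the highest for both genes. The others that fell were se (-2.05 ± 0.62), whose exons overlap GstO2, PHGPx (-0.83 ± 0.13), Trxr-1 (-0.77 ± 0.13) and cnc (-0.42 ± 0.08), and Cbs rose (0.56 ± 0.12). The list's median was -0.18, against 0.02 over all genes.

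In Actin control guts Cbs (-0.76 ± 0.15) and maf-S (-0.48 ± 0.11) fell and Ggt-1 (0.66 ± 0.16) and Idh (0.43 ± 0.12) rose with mating, of 22 tested, beside 6.87% of all genes called. In EcR RNAi guts Cbs (-0.98 ± 0.15) and MRP (-0.29 ± 0.09) fell and Ggt-1 (0.92 ± 0.17) rose, beside 10.8% of all genes called. Cbs and Ggt-1 thus changed in opposite directions in whole guts and in both Actin stocks, and the Actin control minus whole gut difference was called for Cbs (-1.97 ± 0.14) and Ggt-1 (1.73 ± 0.24). In guts labelled EcR RNAi against controls, Idh, which also makes NADPH, was higher in unmated (1.10 ± 0.12) and mated guts (0.70 ± 0.12), as were MRP (0.85 ± 0.09 and 0.49 ± 0.09) and PHGPx (0.23 ± 0.07 and 0.30 ± 0.07). In unmated guts 6 of 22 listed genes were higher and none lower, beside 15.2% of all genes called, and in mated guts 3 were higher and none lower, beside 8.52%.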

How the data were processed

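The authors deposited counts of reads per gene, 1 table each for whole guts, progenitors and Actin guts. Per the submitters' processing notes STAR, HTSeq and DESeq2 were used with BDGP6 and dm6. The sources used here do not give their versions or the strand setting. Entries that name no gene held 0.0452%, 0.137% and 0.0651% of counts in those tables and were left out. Of 47 samples 32 were analysed. The 15 Myo1A samples were not analysed, because their table repeats the 8 columns of the whole gut table value for value, and 16 further columns were not used.

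Counts were fitted in R 4.3.3 with edgeR 4.0.16 (filterByExpr, minimum count 10, minimum total 15; TMM scaling; robust quasi-likelihood F test; Benjamini-Hochberg adjustment over all genes). The 16 Actin libraries shared a fit, whose comparisons share libraries. Differences between materials came from joint fits of 16 libraries. The SE was taken from each log2 fold change and its F (their ratio, with F under a square root), so it is not independent of p. CPM use TMM-adjusted library sizes within a table, and exon lengths and coordinates come from the BDGP6.54 annotation. The procedure was also run on simulated counts drawn without effects shared within a library, so that run does not bear on such effects.

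The genes named were the highest member of each class and, per mating comparison, up to 3 called members and up to 3 called genes of the glutathione list with the smallest adjusted p in each direction. Other members are named in counts, and GstE1 and GstE7 were given per library after their values were seen. Members and lists were chosen with earlier results of these data known. Alternatives were upper quartile scaling, DESeq2 1.42.0, edgeR with DESeq2 size factors, dropping the filter, a replicate block, only the compared groups, each library left out, and, added after seeing the data, unmated progenitor libraries 1 and 4 left out. In mated and unmated Actin controls, same-numbered libraries correlated in their deviations from the group mean (r of 0.312, 0.234, 0.108 and 0.165). By these deviations mated libraries 1, 2, 3 and 4 were closest to unmated libraries 1, 1, 4 and 3. A pairing by number is therefore not settled, and the correlations are a property of the data and not of the labels.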

Additional observations from a re-analysis of the deposited data

Results flagged for a closer look

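In 17 of 252 sets of 4 libraries (6.75%), 1 library stood apart from the other 3 of its group. Chance sets about 1 in 20 groups apart, so these are listed as values only. In whole guts they were unmated library 4 for GstD2 (10.5 CPM) and GstE1 (56.2 CPM), unmated library 2 for GstD7 (10.4 CPM), and mated library 3 for GstO3 (low, 130.3 CPM) and GstT3 (45.6 CPM). In progenitors they were mated library 1 for GstE8 (3.498 CPM), mated library 3 for GstT4 (low, 6.03 CPM) and unmated library 1 for GstE5 (5.63 CPM). In mated Actin controls they were library 3 for GstD1 (502 CPM) and GstD10 (34.4 CPM). In unmated Actin controls they were library 4 for GstD10 (17.8 CPM), GstE10 (3.99 CPM) and GstT1 (21.4 CPM), and library 3 for GstT4 (733 CPM). In EcR RNAi guts they were mated library 1 for GstD9 (25.8 CPM), unmated library 1 for GstT3 (low, 31.6 CPM) and unmated library 4 for GstZ2 (low, 0.259 CPM).

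The mating response differed between progenitors and whole guts for 16 members, by edgeR's test of the difference. The progenitor minus whole gut difference in log2 fold change was -1.20 for GstD1, -4.70 for GstD2, -1.83 for GstD8, -2.81 for GstD9 and -2.10 for GstD10. It was -2.72 for GstE1, -2.53 for GstE3, -2.04 for GstE6, -4.07 for GstE7, -3.57 for GstE8, -2.46 for GstE9 and -0.76 for GstE11. It was 0.59 for GstO1, -0.56 for GstO2, -1.15 for GstO3 and -3.11 for GstT4. Of these 16 calls, 12 were kept under every alternative. That of GstD8 was lost in 12 settings, and those of GstD10, GstO3 and GstO1 were lost without unmated progenitor libraries 1 and 4, that of GstO1 also with the replicate block.

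The mating response also differed between Actin controls and whole guts for 7 members. The Actin control minus whole gut difference was -0.83 for GstD1, -1.45 for GstD9, -0.97 for GstE7, -1.19 for GstE8, -1.09 for GstE9, -0.75 for GstO2 and -2.46 for GstT4. Of these 7 calls, 4 were kept under every alternative. Those of GstD1 and GstD9 were lost in 10 settings each and that of GstE9 in 1.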

How the results depend on the processing

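Counts of called members moved as follows. For mating in whole guts (5) the count was 2 with upper quartile scaling, 8 with DESeq2 and 1 with the replicate block. For mating in Actin controls (2) it was 5 with the replicate block and 1 with only the compared groups fitted. Leaving out 1 library gave 1 to 4 for whole guts, 1 to 3 for Actin controls, 1 to 4 for EcR RNAi guts, 19 to 24 for progenitors, 6 to 10 for genotype in unmated and 5 to 8 in mated guts, 15 to 19 for the progenitor minus whole gut difference and 5 to 8 for the Actin control minus whole gut difference. The unmated progenitor against whole gut value of GstE7 was -0.95 without unmated progenitor libraries 1 and 4 and 0.11 with them (not called). Calls kept under every alternative were 18 of 22 in progenitors, 1 of 5 in whole guts, 0 of 2 in Actin controls, 1 of 3 in EcR RNAi guts, and 6 of 9 and 5 of 9 for genotype in unmated and mated guts. The cause of these shifts was not tested. Same-numbered libraries also all correlated positively between mated and unmated EcR RNAi guts (r of 0.102, 0.0775, 0.130 and 0.187). So they did between mated EcR RNAi and mated control guts (0.212, 0.105, 0.0462 and 0.0768). In the remaining comparisons some of these correlations were negative. Outside the Actin control mating comparison the replicate block gave 23 calls for progenitors (22 without it) and 4 for EcR RNAi guts (3). It gave 11 (9) and 9 (9) for EcR RNAi against control without and with mating. GstD6, GstE2 and GstE4 were under the count filter and not tested in some tables, and with that filter edgeR tested GstD11 in none. DESeq2, run without that filter, called the scarce GstD11 lower in mated EcR RNAi guts than in mated controls (-2.13 ± 0.65, adjusted p = 0.0145).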
